A study of Homo sapiens with 15 samples.

Results

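RELN encodes reelin, a large secreted glycoprotein, and its footprints were followed exon by exon in 15 human libraries. The gene was picked because almost no reads of it were counted in the CASC3 footprints of cycloheximide-treated cells, so its values there are given as a description without a test. It is 1 gene of 44786, 1 transcript of 49948 and 64 exons of 279143 in the deposited tables. The values that chose it were 1 and 2 RELN counts in the treated CASC3 libraries, against 179 and 257 counts in the untreated ones. The working label, exon footprints lost with cycloheximide, did not hold in every library: 1 of the 2 treated RNPS1 libraries kept RELN at the untreated level, and the reads came from a single exon rather than from the exons at large.

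Reelin guides the layering of neurons in the developing brain. It binds the receptors VLDLR and LRP8 on migrating neurons, which leads to phosphorylation of the adaptor DAB1 by SRC family kinases. The exon junction complex (EJC) is left by splicing a short distance upstream of each exon junction and is removed from coding sequence when a ribosome passes. EIF4A3, MAGOH and RBM8A form its core, while CASC3 and RNPS1 are peripheral proteins found on different populations of the complex.

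All cells were of HEK293 Flp-In Trex, an embryonic kidney line, and each footprint line stably expressed 1 FLAG-tagged EJC protein. RIPiT, a purification through FLAG followed by an antibody against a further EJC protein, was used to recover RNA protected from RNase I. The 5 native groups are named by tagged protein and second antibody. In 3 of them FLAG-MAGOH was followed by EIF4A3 (MAGOH-EIF4A3), by CASC3 (MAGOH-CASC3) or by RNPS1 (MAGOH-RNPS1), and in the other 2 FLAG-CASC3 or FLAG-RNPS1 was followed by EIF4A3. Each had 1 library from cells with neither formaldehyde nor cycloheximide. The 4 crosslinked groups had 2 libraries each. They came from FLAG-CASC3 or FLAG-RNPS1 cells fixed with 0.1% formaldehyde for 10 min, with EIF4A3 as the second target. The treated groups also received cycloheximide, an inhibitor of translation elongation, at 100 µg/ml for 3 h before harvest. RNA-seq, with 2 libraries, came from untreated cells with no tagged protein, after removal of ribosomal RNA and base hydrolysis. CASC3 and RNPS1 footprints come from different lines, so protein and line cannot be told apart. Nothing in the labels says that replicates were grown separately, so the p-values reflect only how much these libraries varied, which may be technical.

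Library totals ran from 467741 counts in treated RNPS1 replicate 2 to 8057700 in treated CASC3 replicate 1. Levels were expressed as CPM, in which counts are scaled to the total of their library. Of 11 genes known from HEK293 cells, 9 reached at least 1 CPM in both RNA-seq libraries. PAX2 (3.49 and 0.845 CPM) and NEFM (0.873 and 0 CPM) did not. The summed levels of the 11 were 1420 and 1377 CPM, most of it from VIM (1035 and 1009 CPM). Of 11 markers of other cell types, 4 were at 1 CPM or more and PTPRC, CD3E, ALB and CDH5 were at 0. The 4 were GAD1 (29.7 and 17.7 CPM), COL1A1 (8.73 and 9.29), PECAM1 (4.365 and 2.535) and SLC17A7 (1.75 and 1.69). The summed levels of the 11 were 46.3 and 32.1 CPM, most of it from GAD1, a neuronal marker. A level below is a share of a library, so fewer cells with the RNA, less RNA per cell and fewer footprints per RNA cannot be told apart.

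The deposited transcript, ENST00000343529 (RefSeq NM_173054), lies on the minus strand at chr7:103471784-103989516 of GRCh38. All 64 of its exons matched GENCODE v29 in position. Exon 1, at chr7:103989131-103989516, is 386 nt long and is 3.34% of the 11565 nt of the transcript. It holds 160 nt of 5′ untranslated region and the first 226 nt of the coding sequence, which encode the amino-terminal end of reelin with its signal peptide. GC made up 69.4% of exon 1, with 77.5% in its untranslated part and 63.7% in its coding part. Exons 2 to 64 had 46.2% GC over their 11179 nt and ranged from 30.6% to 58.7%, so exon 1 lay above every other exon of the gene. A run of GGC repeats of 26 nt (bases 135 to 160 of the exon) ends directly at the start codon. The longest such run in the other 63 exons is 7 nt. The coding part of exon 1 and the run are shown because nearly every RELN count fell in this exon. Capitals in the coding part mark the bases 27 to 20 nt upstream of the junction with exon 2, where an EJC is usually found, and capitals in the second line mark the repeat. The sequences are those of the GENCODE v29 transcript, at chr7:103989131-103989356 and chr7:103989357-103989382, minus strand.
RELN exon 1, coding part: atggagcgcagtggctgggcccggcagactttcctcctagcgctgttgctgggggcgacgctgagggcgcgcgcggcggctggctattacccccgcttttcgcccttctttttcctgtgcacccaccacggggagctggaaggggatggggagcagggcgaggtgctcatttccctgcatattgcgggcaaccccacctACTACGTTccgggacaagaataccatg
RELN exon 1, GGC run: GCGGCGGCGGCGGCGGCGGCGGCGGC

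Of the 2119 RELN counts in the 15 libraries, 2110 were in exon 1. The other 9 counts were single reads in 9 different exons, and 54 exons were at 0 in every library. In every library except the 3 with fewest RELN counts, the level of the gene was therefore the level of this exon. Exon 1 had counts in 14 libraries, and treated CASC3 replicate 1 had 0. The single reads lay in exons 2, 6 and 46 (RNPS1 replicate 2), 33 (RNPS1 replicate 1), 26 (native MAGOH-RNPS1), 11 and 31 (treated RNPS1 replicate 1), 44 (treated CASC3 replicate 2) and 55 (treated CASC3 replicate 1). The 2 exons under 60 nt, exon 5 of 33 nt and exon 8 of 52 nt, and the last exon of 1125 nt had no counts. Neither the position of a read within exon 1 nor its strand is given in the count table. Reads over the untranslated part, the repeat and the junction could therefore not be separated.

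RNA-seq had the same shape, with 35 and 20 counts in exon 1 and 0 counts in the other 63 exons of either library. Had the other exons been covered at the density of exon 1, 1014 and 579 counts would have fallen in them. Reads of the full-length RELN transcript were thus not detectable in RNA-seq at this depth, where the limit that a count of 0 allows is 3 counts, or 2.62 and 2.54 CPM. Of the 363 stretches of 20 nt in exon 1, 12 also occur in transcripts of 295 other genes. All 12 overlap the GGC run, between bases 129 and 164, and 0 lie elsewhere in the exon. No other annotated gene overlaps exon 1.

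**Figure D1:**
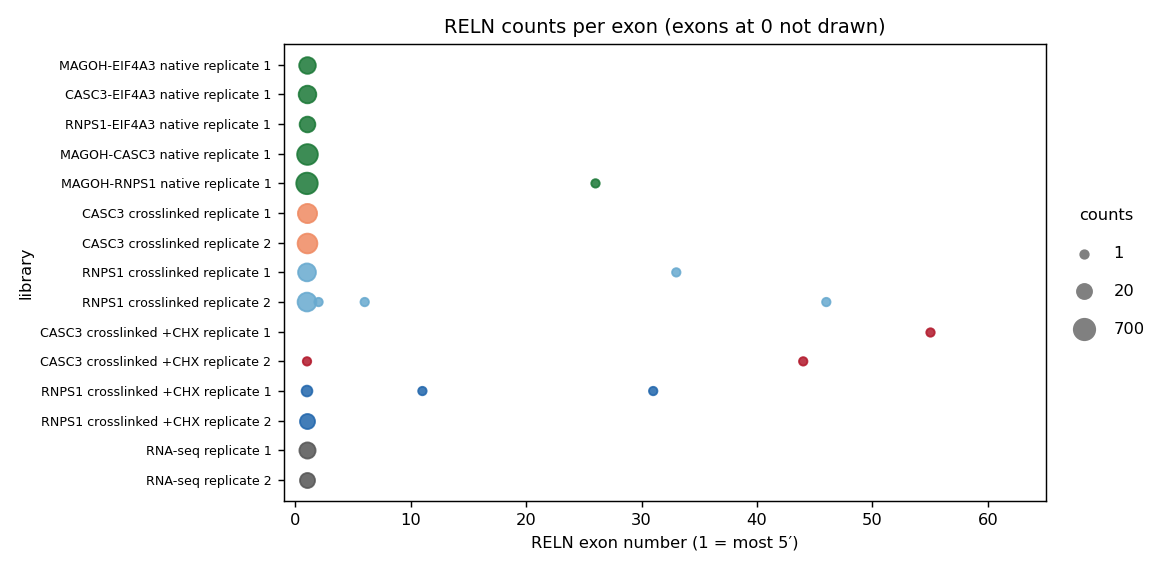
Each row is a library and the horizontal axis is the RELN exon number, counted from the 5′ end. The area of a dot grows with the log2 of the counts in that exon. Exon 1 carries 2110 of 2119 counts, and the rest are single reads.

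Such concentration was uncommon but not confined to RELN. Among 6377 transcripts with at least 10 exons and 100 counts summed over the libraries, the exon with most counts held a median of 18.5% of the counts, and 38.3% at the 95th percentile. RELN was at 99.6% and ranked 5. Above it were AC138969.4, GOLGA8A, CBSL and GOLGA8B, members of families with near-identical copies, for which the placing of reads is uncertain. Of 282 transcripts with at least 40 exons, RELN was the 1 transcript with over 90% of its counts in 1 exon, beside a median of 7.42%. DSCAM, a neuronal cell adhesion gene of 33 exons, had 91.9% of its 123 counts in exon 1. Reelin's receptors did not share the shape: VLDLR had counts in all 19 exons with 14.6% in the highest, and LRP8 in all 19 exons with 12.9%. In 50 large extracellular genes with at least 100 counts, the highest exon held 2.38% to 42.9% (FREM2).

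RELN was highest where CASC3 or RNPS1 was purified from MAGOH complexes and in crosslinked CASC3 footprints. Native MAGOH-CASC3 footprints had 462 counts, a level of 303.7 CPM with a 95% exact Poisson interval of 276.7 to 332.7. Native MAGOH-RNPS1 footprints had 753 counts, or 240.1 CPM (223.3 to 257.9). Crosslinked CASC3 libraries had 189.6 and 323.7 CPM, a mean of 256.7 ± 94.8 (SD, n = 2), and both native values lie between these replicates. Native CASC3-EIF4A3 footprints followed with 75 counts and 80.2 CPM (63.1 to 100.5). Crosslinked RNPS1 libraries agreed closely with each other at 37.0 and 36.2 CPM, a mean of 36.6 ± 0.559 (SD, n = 2). RNA-seq was at 30.6 and 16.9 CPM, a mean of 23.7 ± 9.65 (SD, n = 2).

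The lowest untreated groups were the native footprints of the core complex and of RNPS1. RNPS1-EIF4A3 footprints had 28 counts and 12.5 CPM (8.33 to 18.1). MAGOH-EIF4A3 footprints had 45 counts in 4503784 and 9.99 CPM (7.29 to 13.4), and these 2 intervals overlap. Neighbours in the order whose values did not separate were thus the top 3 groups by the spread of the CASC3 replicates, RNPS1-EIF4A3 with MAGOH-EIF4A3, and treated RNPS1 footprints with both RNA-seq and RNPS1-EIF4A3. Crosslinked RNPS1 and RNA-seq libraries did not overlap in level, but the test given below did not resolve these groups either. In treated RNPS1 libraries the levels were 0.690 and 42.8 CPM, a mean of 21.7 ± 29.8 (SD, n = 2), so that mean describes neither library. Treated CASC3 libraries were lowest at 0.124 and 0.298 CPM. Counting intervals cover counting error only, since reads amplified by PCR are not independent molecules.

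**Figure D2:**
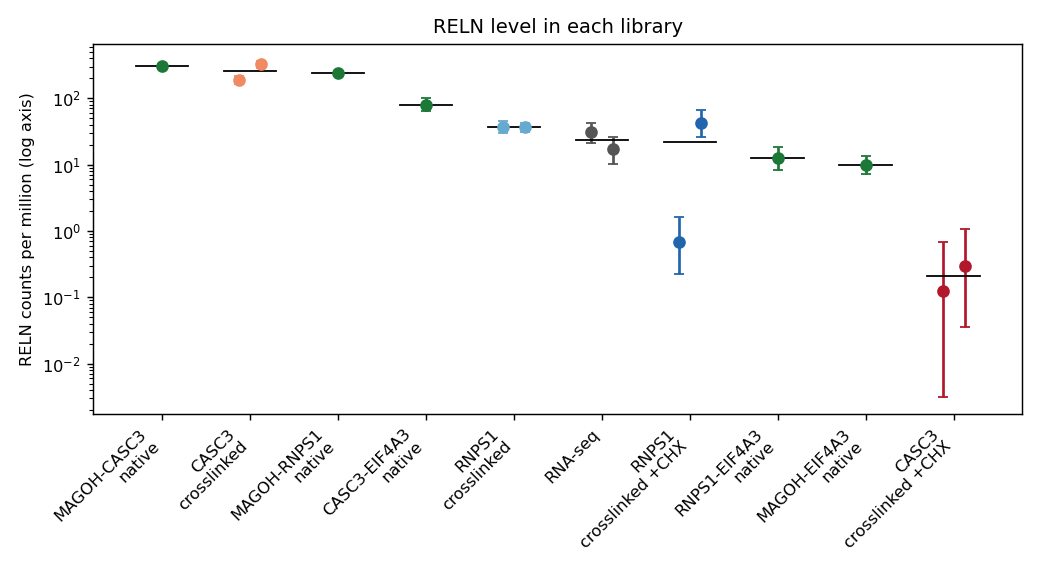
RELN level in CPM on a log axis for each library, by group in the order of the group mean. Points are libraries with 95% exact Poisson intervals and the black line is the mean. Both treated CASC3 libraries lie below 1 CPM, and the 2 treated RNPS1 libraries lie apart at 0.690 and 42.8 CPM.

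Among native footprints of FLAG-MAGOH cells, which share the tagged protein, the RELN level differed with the second antibody. Its level was 30.4 times as high with CASC3 as with EIF4A3 (95% exact interval 22.4 to 42.3). With RNPS1 it was 24.0 times as high as with EIF4A3 (17.8 to 33.2). CASC3 exceeded RNPS1 by 1.27 times (1.12 to 1.42). With 1 library each these intervals cover counting error and not the spread between preparations, and both ratios to EIF4A3 share the MAGOH-EIF4A3 library. Of 118949 exons, RELN exon 1 had the highest difference from MAGOH-EIF4A3 in both comparisons, by 4.86 with CASC3 and 4.52 with RNPS1 on the scale of log2(CPM + 0.5). The exon closest to it in both was exon 3 of EVX2, a homeobox gene, which had 18 counts with CASC3, 28 with RNPS1 and 0 with EIF4A3, so that its place depends on the offset. Exon 1 of DSCAM, which also holds a GGC run (19 nt, 77.7% GC), had 23, 36 and 3 counts, and differences of 3.74 and 3.36.

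Between lines, native CASC3-EIF4A3 footprints held 6.39 times the RELN level of RNPS1-EIF4A3 footprints (4.09 to 10.3). After crosslinking the ratio was 7.02 for the means. Both CASC3 libraries lay above both RNPS1 libraries. Crosslinked levels were above the native ones of the same pair, 3.20 times for CASC3 and 2.92 times for RNPS1. Because RELN was picked from the CASC3 libraries, the CASC3 comparisons carry no test.

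RNPS1 footprints and RNA-seq were compared with a test, since neither entered the choice of RELN. The RNPS1 libraries at 37.0 and 36.2 CPM both exceeded the RNA-seq libraries at 30.6 and 16.9 CPM. The log2 fold change of the transcript was 0.52 ± 0.41 (SE, 2 against 2 libraries, in a fit that also held crosslinked CASC3). Its adjusted p was 0.292 from edgeR's quasi-likelihood test over 12379 transcripts. It was not called, where 61.7% of transcripts were called (32.1% higher and 29.6% lower). Exon 1 itself gave -0.22 ± 0.46 in the exon fit, with an adjusted p of 0.708 over 38550 exons of which 50.1% were called (25.6% higher and 24.5% lower). On that scale the median exon tested was at 0.51, so the 2 fits place RELN differently relative to other features. A difference in RELN counts between RNPS1 footprints and RNA-seq was not resolved from the spread between libraries. All RELN reads of RNA-seq lay in exon 1, so its level is that of exon 1 reads and not of the full-length RNA. The corresponding CASC3 to RNA-seq ratio of mean CPM, without a test, was 10.8.

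Cycloheximide went with near absence of RELN from CASC3 footprints. The untreated libraries had 179 and 257 counts in totals of 943925 and 794010, and the treated ones had 1 and 2 counts in totals of 8057700 and 6701629. The ratio of pooled levels was 1234 with a 95% exact interval of 419.6 to 6008, which is wide because the treated group had 3 counts in all. The interval covers counting error in the values that chose RELN and is no test. The treated libraries thus had fewer RELN counts among a larger total. Of the 3 treated counts, 1 was in exon 1. The fitted log2 fold change was -9.95, beside a median of 0.06 over all transcripts.

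RNPS1 footprints of treated cells gave no single answer. Replicate 1 had 3 counts in exon 1 and 2 in other exons among 7251722, a level of 0.690 CPM (0.224 to 1.61). Replicate 2 had 20 counts, all in exon 1, among 467741, a level of 42.8 CPM (26.1 to 66.0). Replicate 2 lay 62.0 times above replicate 1 (95% exact interval 22.6 to 211.5), and its interval covers both untreated levels. The log2 fold change of the transcript with treatment was -1.37 ± 1.11 (SE, 2 against 2 libraries), with an adjusted p of 0.604 from edgeR's quasi-likelihood test over 14297 transcripts. In that comparison 0.021% of transcripts were called, 3 of them, all lower, and RELN was not among them. Exon 1 gave -1.18 ± 0.85 with an adjusted p of 0.511 over 104449 exons, of which 0.188% were called (0.0728% higher and 0.115% lower). Without treated replicate 2 the log2 fold change of the transcript was -5.71, and without treated replicate 1 it was 0.22. Each of these fits had a single treated RNPS1 library, so no p is given for them. The result thus rests on which treated library is kept. The untreated RNPS1 libraries are shared by this comparison and the one with RNA-seq.

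The 3 libraries with RELN below 1 CPM were also the deepest of the series and the poorest in GC-rich exons. Exons with at least 70% GC held 0.97% and 1.06% of counts in treated CASC3 libraries and 1.92% in treated RNPS1 replicate 1. The share was 12.3% in treated RNPS1 replicate 2, which kept RELN, and 6.93% to 13.4% in the 9 untreated footprint libraries. RNA-seq had 2.65% and 2.45%, and still held RELN at 30.6 and 16.9 CPM. The part of base composition and of depth in the RELN values was not tested.

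**Figure D3:**
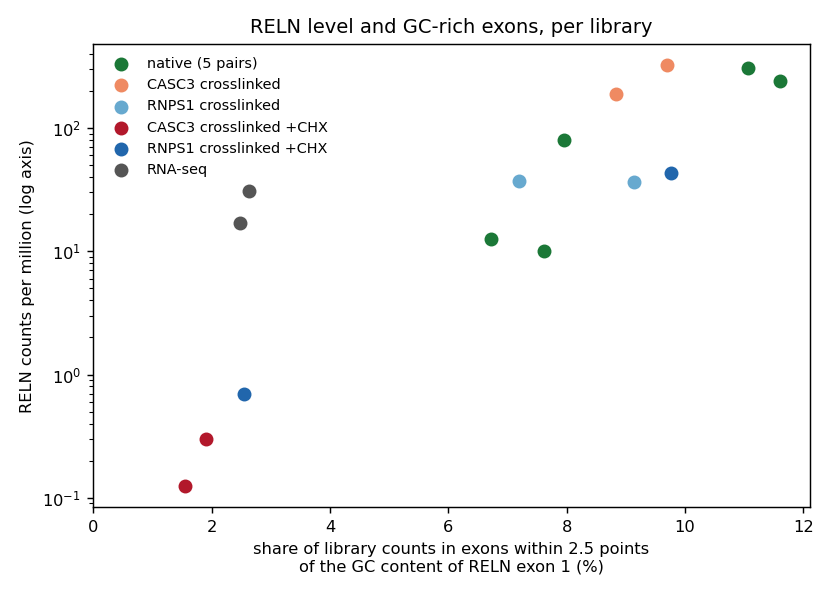
RELN level in CPM (log axis) against the percentage of library counts in exons whose GC content is within 2.5 points of RELN exon 1. Each point is a library. The 3 libraries under 1 CPM lie at 1.55%, 1.90% and 2.55%, next to the 2 RNA-seq libraries at 2.64% and 2.48%, which are above 15 CPM.

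RELN exon 1 was set beside exons of like composition. In crosslinked CASC3 footprints its place among them comes from the choice of the gene and is no finding. Exons within 2.5 percentage points of its GC content and with at least 50 counts in all (5571 exons) had a median treated minus untreated difference of -2.11 in CASC3 footprints, on the log2(CPM + 0.5) scale. RELN exon 1 was at -8.77. All 39 exons with a GGC run of at least 26 nt were below 0, with a median of -3.15, whereas the median over 117964 exons was 0.34. First exons had a median of -1.98. These exon sets were formed after values had been seen and are a description only. In treated RNPS1 replicate 1 the medians were -1.52 for exons of like GC and -2.15 for exons with a run, with RELN at -5.32. Over all exons the median there was 0.14. In treated RNPS1 replicate 2 the medians of these sets were -0.27 and -0.07, above the -1.40 of all exons. RELN was at 0.24, inside the 10th to 90th percentile of each set. In this library of 467741 counts, differences of exons with few reads depend on the offset of 0.5 CPM. Between crosslinked RNPS1 footprints and RNA-seq the medians were 1.89 and 2.17, with RELN at 0.65, inside the 10th to 90th percentile of each set. The exons nearest to RELN in CASC3 footprints were exon 1 of RPS12 (-9.37) and of RPL35 (-8.84), both ribosomal protein genes, and exon 2 of HMGA1 (-8.10), a chromatin protein gene. The order of these values depends on the offset of 0.5 CPM, since RELN exon 1 had 1 treated count. Without an offset the pooled untreated to treated ratio was 3703 for RELN exon 1, 1092 for RPS12 and 1094 for RPL35.

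RELN was also expressed relative to the counts in exons of like GC. Per 100000 counts in 9923 such exons, RELN exon 1 had 274.3 in MAGOH-CASC3, 206.8 in MAGOH-RNPS1 and 13.1 in MAGOH-EIF4A3 footprints. Crosslinked CASC3 libraries had 214.6 and 333.7, and crosslinked RNPS1 libraries 50.8 and 38.9. Treated CASC3 libraries had 0 and 0.784, and treated RNPS1 libraries 1.62 and 43.8. RNA-seq moved above RNPS1 footprints on this measure, with 115.9 and 68.0. By counts per kb, exon 1 ranked 27 of 42093 first exons in MAGOH-CASC3 footprints, 62 and 75 in crosslinked CASC3, 913 and 925 in crosslinked RNPS1, and 403 and 831 in RNA-seq.

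**Figure D4:**
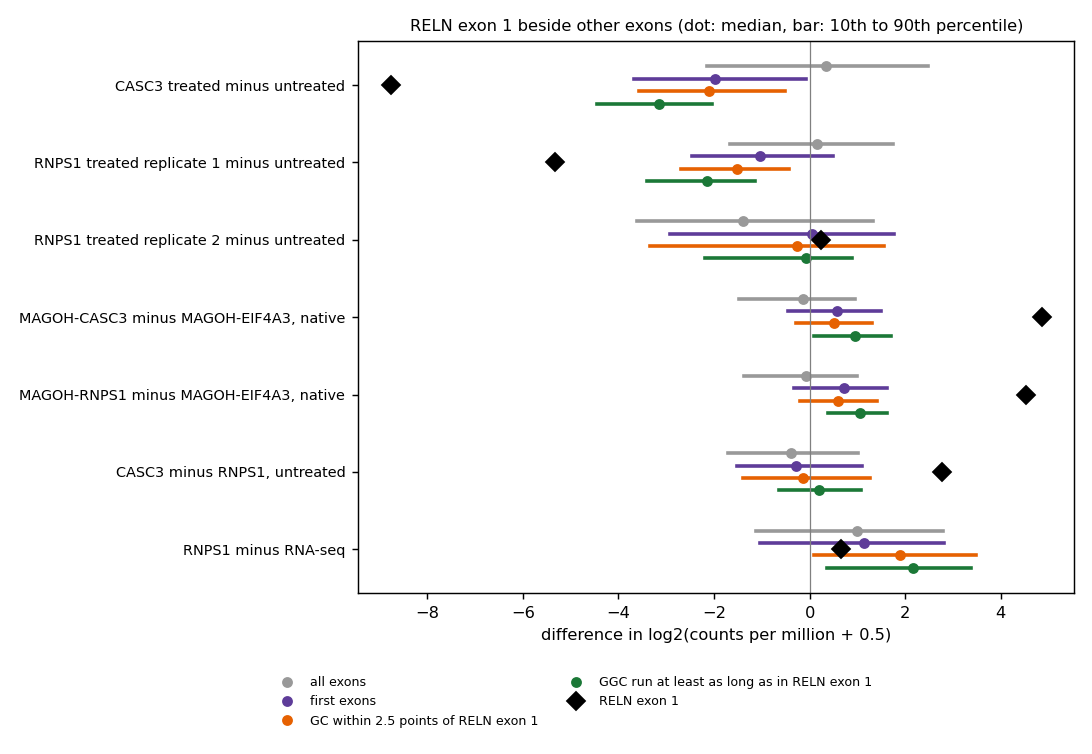
Difference in log2(CPM + 0.5) of RELN exon 1 (diamonds) beside other exons with at least 50 counts in all, where dots are medians and bars run from the 10th to the 90th percentile. RELN lies outside the bars of all 4 exon sets in every contrast drawn except treated RNPS1 replicate 2, where it is at 0.24, and RNPS1 minus RNA-seq, where it is at 0.65. Its place in the contrasts with crosslinked CASC3 libraries follows from how it was picked.

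Other genes of the reelin pathway were read in the RNPS1 comparison with cycloheximide. Their list was not picked for how its members moved, but earlier results of these data were known when it was chosen. Of 41 genes, 38 were tested and 0 rose or fell by edgeR's test, against 0.021% of all transcripts called. With an unadjusted p under 0.05 there were 3 of 38, where 13.2% of all transcripts were. The median log2 fold change was 0.29 against 0.08 for all transcripts, with 25 values above 0 and 13 below. DCX, ADAMTS5 and MEP1B were too low to test. Treated replicate 2 decided these counts as well: without it 6 of 38 genes were called, 3 in each direction, where 13.1% of all transcripts were called (5.63% higher and 7.44% lower). Without replicate 1 there was 1 of 37, lower, where 4.63% of all transcripts were called (2.19% higher and 2.43% lower).

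The receptors of reelin were counted at steadier levels. LRP8, the apolipoprotein E receptor 2, had 222.4 and 157.3 CPM in untreated and 149.2 and 194.6 CPM in treated RNPS1 libraries, and the groups overlapped (log2 fold change -0.13 ± 0.41, adjusted p 0.920 by edgeR). In CASC3 footprints it was at 157.9 and 109.6 CPM untreated and at 130.8 and 95.4 CPM treated, with the groups overlapping, in libraries where RELN was nearly absent. VLDLR, the very low density lipoprotein receptor, had 38.3 and 34.0 CPM untreated against 33.8 and 4.28 CPM treated in RNPS1 footprints, the last from 2 counts (-0.64 ± 0.57, adjusted p 0.643 by edgeR). In CASC3 footprints VLDLR was at 27.5 and 26.5 CPM untreated and 52.7 and 66.0 CPM treated, with the treated libraries above. DAB1, the adaptor that reelin signalling phosphorylates, had at most 14 counts in any library. Among downstream genes the smallest p belonged to AKT1, a kinase activated below phosphoinositide 3-kinase. Its levels were 290.0 and 391.0 CPM untreated and 97.1 and 166.8 CPM treated, without overlap (-1.40 ± 0.46, adjusted p 0.254 by edgeR). Next by p came EFNB3 at -1.55 and, on the other side, ITGB1 at 1.06, PIK3R1 at 0.91, RAP1A at 0.94 and CUL5 at 0.93, none of them called.

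For large secreted or cell-surface proteins made from many exons, as reelin is, the count called was also 0. Of 55 genes, 50 were tested and 0 rose or fell by edgeR's test, against 0.021% of all transcripts called. With an unadjusted p under 0.05 in that test there were 8 of 50, where 13.2% of all transcripts were. Their median was -0.15, with 18 values above 0 and 32 below. SSPO, which encodes SCO-spondin, had the smallest estimate of those named here at -2.50 ± 0.80 (SE), and FBN3, a fibrillin, followed at -2.00 ± 0.65. FAT4 at 1.44 and FREM2 at 1.37, a protocadherin and a basement membrane protein, lay on the other side. The count called moved without treated replicate 2, in a fit with a single treated RNPS1 library, so it is not given.

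The transcripts whose pattern over the 10 group means was most like that of RELN were TSR3, MFSD3, YDJC, SLC45A3 and FAM171A2. Pearson's r of mean log2(CPM + 1) over the 10 groups was 0.975, 0.970, 0.964, 0.962 and 0.957, as the ranking of 12901 candidates with no test. The points share libraries and base composition, and the 5 transcripts have 58.9% to 71.3% GC. They include the treated CASC3 mean, for which RELN was picked, so a shared low value there follows from the ranking. None approached the amplitude of RELN, whose groups spanned 7.98 on that scale, while the 5 spanned 1.99 to 3.13. Their counts were less concentrated in a single exon, with 24.0% to 57.4% in the highest. These transcripts have 5 to 8 exons against 64 in RELN, so the shares are not directly comparable. With Spearman's correlation 0 of the 5 were named again.

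**Figure D5:**
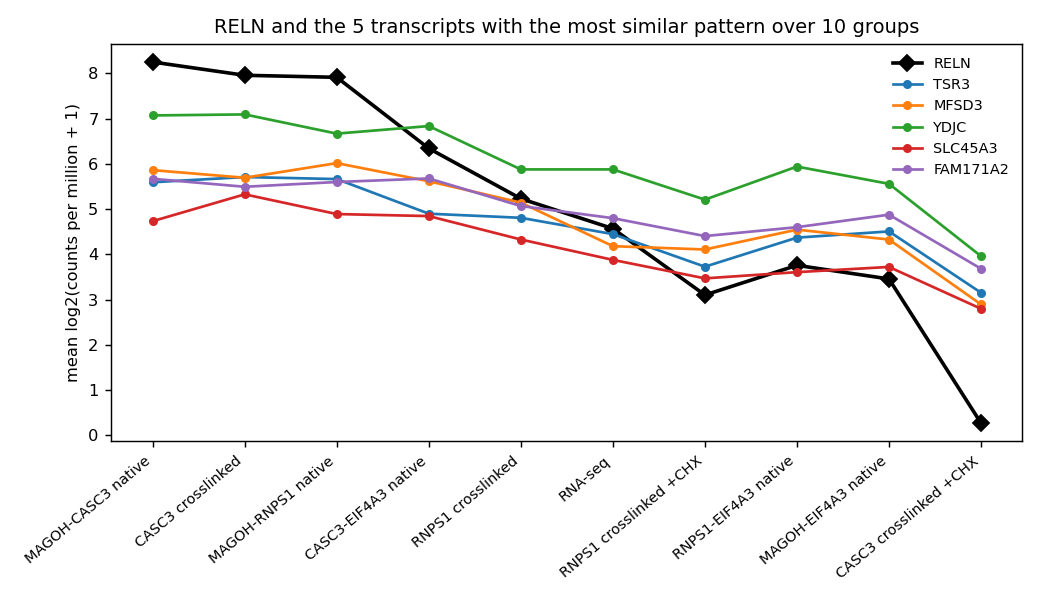
Mean log2(CPM + 1) of RELN (diamonds) and of the 5 transcripts with the highest Pearson correlation to it, over the 10 groups in the order of RELN's group mean. RELN spans 7.98 and the others 1.99 to 3.13, and all have their lowest value in treated CASC3 footprints. The ranking used that group, for which RELN was picked, so the shared lowest place is no finding.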

How the data were processed

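The deposited tables hold whole-number counts of reads per exon and per transcript in 15 libraries, made by the authors. Per the submitters' processing notes, cutadapt 1.16, TopHat2 2.1.1 and bedtools were used with build hg38. Annotation, strand and multi-mapping settings of the counting were not given in the sources used here. After 19 blank lines were left out, counts were used as deposited. RELN and the lists were chosen with earlier results of these data known.

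CPM divides by all transcript counts of a library. Intervals are exact (Poisson, or Clopper-Pearson for ratios and shares) at 95% and cover counting error only. Tests of transcripts and of exons used edgeR 4.0.16 under R 4.3.3 (quasi-likelihood, TMM, filterByExpr with a minimum count of 10, Benjamini-Hochberg adjusted p under 0.05 over all features). The fits held the 8 crosslinked libraries, or crosslinked CASC3, crosslinked RNPS1 and RNA-seq. SE is the size of the log2 fold change over the square root of F. The code was tested on simulated data. DESeq2 1.42.0 was an alternative, as were its size factors, no filter, a replicate block and leaving out each library. RELN exons were named by share of counts, first, last and shortest, and similar transcripts by Pearson correlation over group means. Members of the lists were named by smallest p, and the receptors and DAB1 for their role. Python 3.11.15 with pandas 2.3.3, numpy 2.4.6, scipy 1.17.1 and matplotlib 3.10.9 handled the tables and drew the plots.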

Additional observations from a re-analysis of the deposited data

How the results depend on the processing

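Of 80 alternative values for 17 results, 68 were the same as the main value by the rule for their kind. For a test, the direction and the side of the threshold were kept, and for a list the count called was unchanged. For a group level, the value stayed within the SD, or within the counting interval where the group had 1 library. Treated RNPS1 replicate 2 is the shallowest library and replicate 1 one of the deepest, and the RNPS1 result with cycloheximide turns on them. Over the fits that left out each library, the transcript change ran from -5.71 to 0.22 and the exon 1 change from -6.40 to 0.0390. The fits at both ends had a single treated RNPS1 library, so only the size of the change is given. Transcripts called went from 3 to 145 with no filter, 126 with DESeq2 and 0 with the 4 RNPS1 libraries alone. Exons called went from 196 to 27, 411 and 0 in the same order. With DESeq2 size factors they were 119 higher and 31 lower, against 76 and 120. The pathway list had 0 to 6 members called and the large extracellular list 0 to 12 in the fits that left out each library. Against RNA-seq, exon 1 moved from -0.22 to 0.0309 with no filter, and from -0.61 to 0.16 when each library was left out. With the replicate block, the transcript change with cycloheximide was -2.13 (unadjusted p 0.0345, adjusted p 0.293) and that of exon 1 -2.28, with 7 transcripts and 31 exons called; against RNA-seq they were 0.49 and -0.24, and no call on RELN or the lists changed. Whether same-numbered libraries are pairs was not settled. Correlations of their deviations ran from 0.04 to 0.35 between crosslinked groups, with 0.34 for RNPS1 without and with cycloheximide. With RNA-seq they ran from -0.02 to 0.01. TMM scaling put crosslinked RNPS1 at 33.8 CPM instead of 36.6. Of the 5 most similar transcripts, 0 were shared with Spearman's correlation and 2 over the 15 libraries. Exon use against RNA-seq could not be tested after the filter, which left 1 RELN exon. With no filter, 5 exons entered diffSpliceDGE and exon 1 was at -0.02 (adjusted p 0.998). Causes were not tested.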
